A study of Mus musculus with 48 samples.

Results

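Postnatal maturation of the mouse lung in room air was followed by comparing 12 lungs taken at postnatal day 21 (P21) with 12 lungs taken at postnatal day 5 (P5), gene by gene. These 24 lungs were all the room-air samples among 48 whole-lung RNA-Seq libraries, and the other 24 libraries came from pups exposed to hyperoxia, 95% oxygen by the labels. By the study's methods the exposure ended just before the P5 collection, and exposed mice taken at P21 had recovered in room air. The mice were C57BL/6J animals of the FCG model, in which the testis-determining gene Sry sits on an autosome, so that gonads and sex chromosomes are inherited separately. XXF mice were XX with ovaries, XXM were XX with testes, XYF were XY with ovaries, and XYM were XY with testes. Each of the 4 genotypes gave 3 animals at each age, and all 24 animals breathed room air throughout. Animals of 1 group are told apart by their numbers alone, so p-values measure the spread between numbered lungs, with no litter or day of processing named. The lung of animal 34 was titled P21, and its age field reads P5. Its column of counts is named for postnatal day 1, an age that no sample has. It was taken as a P21 XXF lung by its title, and without it 3484 genes were called higher at P21 and 2439 lower, against 3449 and 2363 with it. The series text dates the first collection to day 7, where the study's methods give P5, and the name P5 is used here.

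A newborn mouse breathes with simple, thick-walled air sacs, which are divided into alveoli after birth by ridges called secondary septa. Septa are raised by myofibroblasts that lay down elastin and collagen, in a period when epithelial, mesenchymal and endothelial cells divide. Later, division slows, walls thin to a single capillary layer, and resident immune cells, airway defense proteins and detoxifying enzymes reach adult levels. The study's paper places P5 at the end of the saccular stage, that of simple air sacs, and P21 in the alveolar stage. P21 is also about the time of weaning.

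The 24 room-air libraries held 6042939 to 56798952 counts. Levels are given as CPM, counts divided by a library total that was scaled by the trimmed mean of M values (TMM), a factor that corrects for differences in RNA composition, and they were not divided by gene length. Lung identity was clear in every library. Sftpc, the surfactant protein made by alveolar type 2 (AT2) cells, ran from 12444 to 17063 CPM at P5 (median 14271) and from 20073 to 31403 CPM at P21 (median 22754). Animal 34, whose labels disagree on age, lay with the P21 lungs in levels that changed with age. Its summed airway secretory genes were 23956 CPM, against 5864 to 8747 CPM at P5. Its summed regulators of fetal growth were 172 CPM, the highest at P21, against 478 to 554 CPM at P5. The first principal component of log CPM held 56.6% of the variance over the 24 lungs. Changes are log2 values of P21 over P5 from edgeR, printed ± SE, and a gene was called at a Benjamini-Hochberg adjusted p under 0.05 over all genes tested with at least a 1.5-fold change. In bulk lung, fewer cells of a type and less RNA per cell cannot be told apart.

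Some lungs stood apart from others of their age. At P21, XXF animals 34, 35 and 36 and XXM animals 37 and 40 had 24 genes of the G2 and M phases of the cell cycle at a summed 710.4 to 777 CPM, against 175 to 266 CPM in the other 7 lungs. These 5 are all XX, and XXM animal 39 is the only XX lung among the other 7. In the same 5 lungs Dbp, an output gene of the circadian clock, was 4.59 to 8.36 CPM against 22.2 to 121 CPM. Zbtb16, a gene induced by glucocorticoids, was 6.12 to 8.52 CPM against 37.9 to 136 CPM. Other genes of that response did not all follow. Fkbp5 was 17.8 to 23.9 CPM against 24.7 to 114 CPM, and Tsc22d3 overlapped, at 346 to 453 CPM against 343 to 763 CPM. The summed glucocorticoid-induced genes overlapped as well, at 1931 to 2282 CPM against 1893 to 2791 CPM. At P5, XXF animals 1, 2 and 3 and XYF animal 15 had the G2 and M phase genes at 1839.7 to 2284 CPM, against 1338 to 1596 CPM in the other 8. Time of day, litter and handling are not labelled, and their part in these differences was not tested. Lungs also differed in transcripts of skeletal muscle, whose source was not tested. Summed over 12 skeletal muscle genes, 5 P5 lungs had 339 to 851 CPM and 6 P21 lungs had 928 to 8854 CPM, and the other 13 had 17.5 to 71.4 CPM at P21 and 10.1 to 18.1 CPM at P5. Counts of calls without each of these sets, all chosen after the values were seen, are given where they matter.

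Of 17532 genes tested, 3449 (19.7%) were called higher at P21 and 2363 (13.5%) were called lower, 5812 (33.2%) in all. An adjusted p under 0.05 without a fold minimum was reached by 12820 (73.1%). Without the 5 P21 lungs the counts were 3559 and 2660, without the 4 P5 lungs they were 3641 and 2418, and without the 11 lungs high in muscle genes they were 3276 and 2498. With library totals in place of TMM the median of all genes moved from 0.01 to -0.11 and the split became 2881 higher and 2963 lower. In 2375 genes (13.5%) every P21 lung was above every P5 lung, and in 2514 (14.3%) every P21 lung was below. These shares, and the median of 0.01, are the background for the gene lists that follow.

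**Figure D1:**
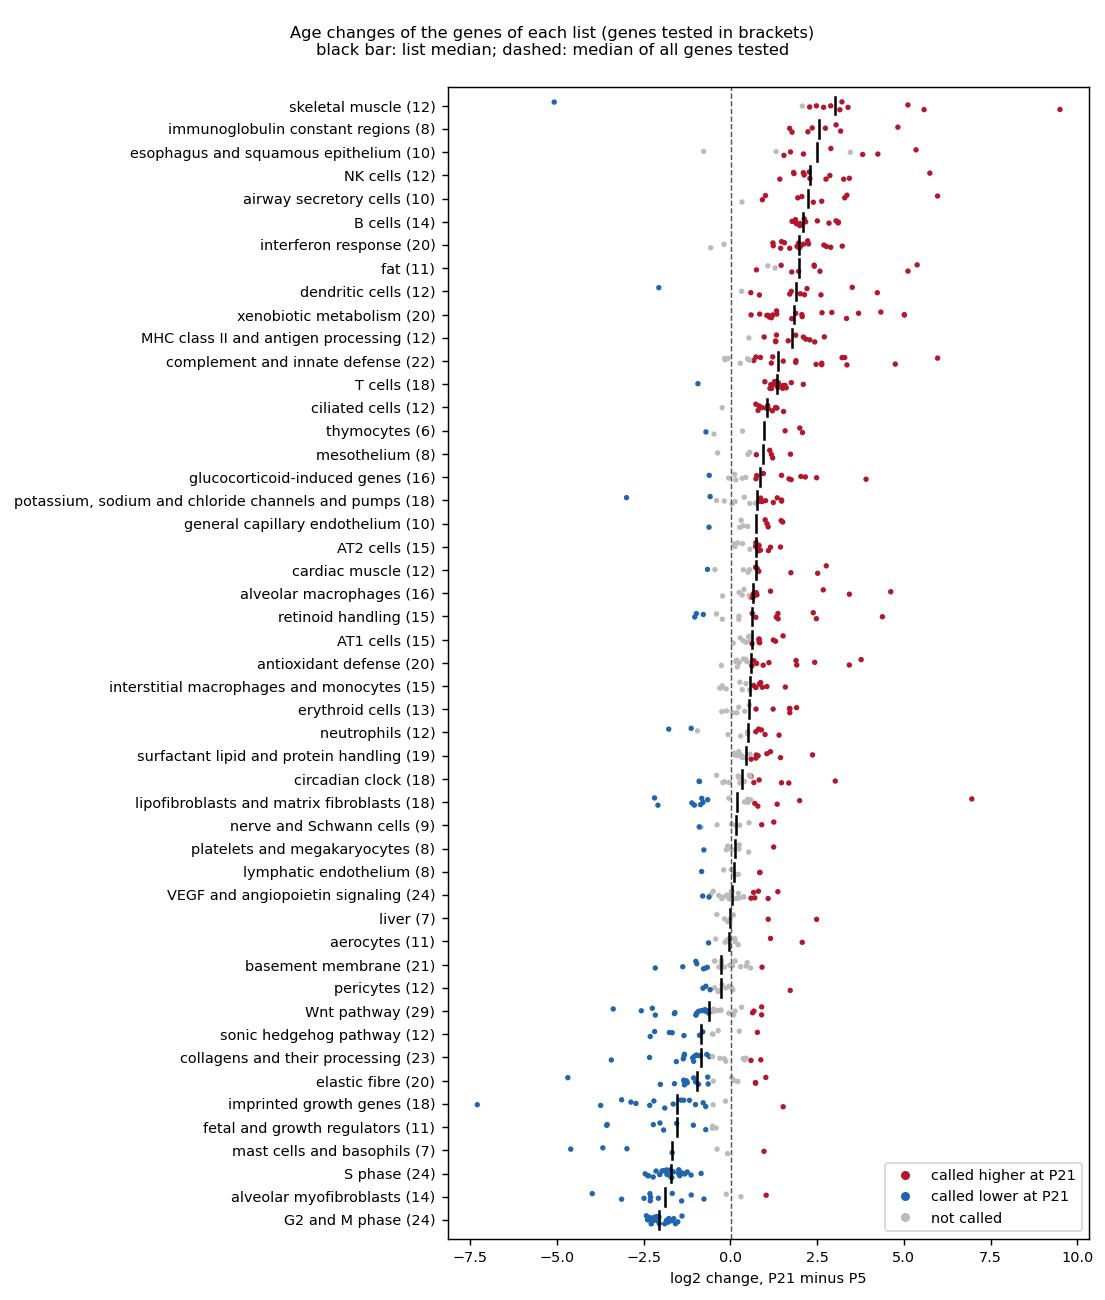
Log2 change from P5 to P21 of each tested member of 49 gene lists, with members called higher in red, called lower in blue and the others in gray, a black bar at the list median and a dashed line at the median of all genes. All 24 members of both cell cycle lists lie on the side of P5, and all 20 xenobiotic genes lie on the side of P21.

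Cell division genes had the lowest median of the 49 gene lists. All 24 tested genes of the G2 and M phases fell, with a median change of -2.07, and in all 24 the P21 lungs lay below the P5 lungs without overlap. Their summed level was 1338 to 2284 CPM at P5 (median 1514) and 175 to 777 CPM at P21 (median 263). Mki67, a protein of dividing cells, ran from 239.5 to 407 CPM at P5 (median 267) and from 29.6 to 122 CPM at P21 (median 43.3), a log2 change of -2.21 ± 0.19 (adjusted p = 2.26e-10). Every P5 lung was above every P21 lung, and the top of the P21 range was made by the 5 lungs named above, which held 112 to 122 CPM against 29.6 to 46.9 CPM in the rest. Top2a, the topoisomerase that untangles replicated DNA, was 174 to 327 CPM in P5 lungs (median 197) and 17.1 to 94.5 CPM in P21 lungs (median 30.6), a log2 change of -2.34 ± 0.23 (adjusted p = 2.51e-09). Cdk1, the kinase that drives entry into mitosis, had a median of 82.4 CPM at P5 (lowest 74.5, highest 120.4) and of 11.4 CPM at P21 (lowest 4.34, highest 39.98), a log2 change of -2.39 ± 0.24 (adjusted p = 2.54e-09). Without the 5 lungs the changes were -2.91 for Mki67, -3.18 for Top2a and -3.36 for Cdk1. The 5 lungs were picked out by these levels, so the larger fall without them is a description.

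All 24 S phase genes fell as well, with a median of -1.72 and no overlap between the ages in any. Uhrf1, which carries DNA methylation over to the new strand during replication, ran from 45.9 to 101 CPM at P5 (median 59.5) and from 6.14 to 21.9 CPM at P21 (median 9.40), a log2 change of -2.46 ± 0.14 (adjusted p = 2.11e-13). Of the members with the most counts, Mcm6, a subunit of the replicative helicase, changed by -1.46 ± 0.08, and Pcna, the sliding clamp of the DNA polymerases, by -0.85 ± 0.06. The S phase sum of the 5 P21 lungs was 507 to 584 CPM against 339 to 412 CPM in the other 7, a narrower gap than for the G2 and M phase genes.

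**Figure D2:**
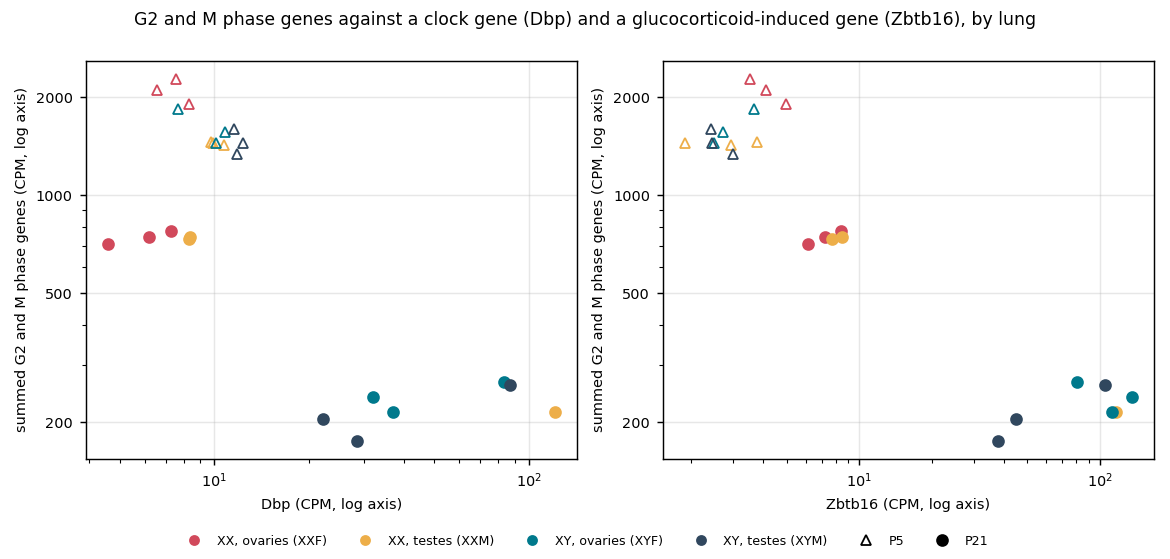
Summed level of 24 G2 and M phase genes (vertical log axis, CPM) against Dbp (left) and Zbtb16 (right, horizontal log axes, CPM) in each room-air lung, with P5 as open triangles, P21 as filled circles and genotype by color. The 5 P21 lungs with sums of 710.4 to 777 CPM have the lowest Dbp and Zbtb16 of their age.

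Promoters of these genes are shown because the list moved as a block. Promoter sequences, each 250 bases before to 50 bases after a transcription start on GRCm38.p6, came from RefSeq and were found for 20 of the 24 G2 and M phase genes. Letters TTTGAA (the cell cycle homology region), CCAAT (the box of that name) and TTCCCGC (an E2F core) were searched on both strands. Of 21 promoters of the list, 16 (76.2%) held TTTGAA, against 17.9% of all 32851 promoters, and 19 (90.5%) held CCAAT, against 37.4%. Both stood in 16 (76.2%), against 6.95% of all, and TTCCCGC stood in none, against 4.6%. In the 21 promoters of 19 S phase genes the counts were 2 (9.52%) for TTTGAA, 16 (76.2%) for CCAAT and 11 (52.4%) for TTCCCGC. These shares were counted from the list members alone, and the lists were chosen with earlier results of these data known. The shares describe the genes chosen and are no separate support for their changes. A match describes the letters and is not shown to be a site. The 3 list members with the highest mean level that held both motifs follow, 5′ to 3′, with the letters of both motifs, on either strand, in capitals. They are Mki67 (chr7:135716330-135716629, minus strand), Top2a (chr11:99024140-99024439, minus strand) and Cdk1 (chr10:69352863-69353162, minus strand).
Mki67: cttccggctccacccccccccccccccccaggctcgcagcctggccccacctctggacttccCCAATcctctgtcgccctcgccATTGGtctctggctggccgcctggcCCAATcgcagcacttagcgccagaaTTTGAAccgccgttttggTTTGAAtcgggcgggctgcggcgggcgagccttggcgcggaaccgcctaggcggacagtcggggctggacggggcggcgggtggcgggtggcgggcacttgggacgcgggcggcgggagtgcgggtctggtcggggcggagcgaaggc
Top2a: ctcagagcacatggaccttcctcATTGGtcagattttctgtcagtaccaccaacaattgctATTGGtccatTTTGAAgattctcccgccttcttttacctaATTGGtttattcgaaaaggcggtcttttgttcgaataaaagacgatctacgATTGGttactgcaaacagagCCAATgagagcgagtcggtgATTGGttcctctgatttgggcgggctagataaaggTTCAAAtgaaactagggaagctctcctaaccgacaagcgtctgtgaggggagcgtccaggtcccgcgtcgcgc
Cdk1: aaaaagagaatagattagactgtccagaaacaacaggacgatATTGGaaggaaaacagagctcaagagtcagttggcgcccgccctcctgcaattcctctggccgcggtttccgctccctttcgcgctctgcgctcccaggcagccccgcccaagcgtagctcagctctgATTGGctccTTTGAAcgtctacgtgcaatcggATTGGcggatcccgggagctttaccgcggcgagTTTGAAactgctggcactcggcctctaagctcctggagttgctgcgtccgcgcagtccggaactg

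Growth genes of the fetal period fell next to the cell cycle. Of 18 imprinted growth genes, which in some or all tissues are expressed from 1 parental copy, 15 fell and 1 rose (median -1.54). Dlk1 (ENSMUSG00000040856, chr12:109452823-109463336), a Notch-like ligand of growing tissues, ran from 54.4 to 97.8 CPM at P5 (median 77.7) and from 0 to 0.796 CPM at P21 (median 0.326) and had the largest fitted fall of any gene named (log2 change -7.30 ± 0.16, adjusted p = 3.83e-21). No P21 lung reached 1 CPM. Meg3, the noncoding RNA transcribed next to Dlk1 from the other parental copy, was 176 to 253 CPM in P5 lungs (median 212) and 25.6 to 42.3 CPM in P21 lungs (median 32), a log2 change of -2.73 ± 0.08 (adjusted p = 1.23e-18). Mest, an enzyme of the hydrolase family, had a median of 256 CPM at P5 (lowest 227, highest 350.2) and of 18.8 CPM at P21 (lowest 13.9, highest 26.3), a log2 change of -3.74 ± 0.09 (adjusted p = 9.00e-21). Igf2, the fetal insulin-like growth factor, ran from 75.9 to 195 CPM at P5 (median 103) and from 9.83 to 31.8 CPM at P21 (median 12.9), a log2 change of -2.87 ± 0.20 (adjusted p = 3.49e-12). Its receptor for degradation, Igf2r, changed by -1.01 ± 0.05 and the growth factor receptor adaptor Grb10 by -1.89 ± 0.04. All 6 genes were lower in every P21 lung than in any P5 lung. The only member that rose was Dcn, a small collagen-binding proteoglycan, by 1.52 ± 0.21.

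H19, the noncoding RNA beside Igf2, behaved less evenly. It had a median of 301 CPM at P5 (lowest 224, highest 509.8) and of 43.7 CPM at P21 (lowest 4.14, highest 335), a log2 change of -2.21 ± 0.58 (adjusted p = 0.00157), and the ages overlapped. The 6 P21 lungs with skeletal muscle transcripts held 74.4 to 335 CPM of H19 and the other 6 held 4.14 to 13.1 CPM. At P5 the lungs with over and under 100 CPM of muscle genes held 308 to 509.8 and 224 to 310.2 CPM. Without the 11 lungs the change of H19 was -4.96 (adjusted p = 9.41e-11) and that of Igf2 was -3.02. Muscle transcripts moved with H19, and in XX lungs alone its change was -1.28 and was not called.

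**Figure D3:**
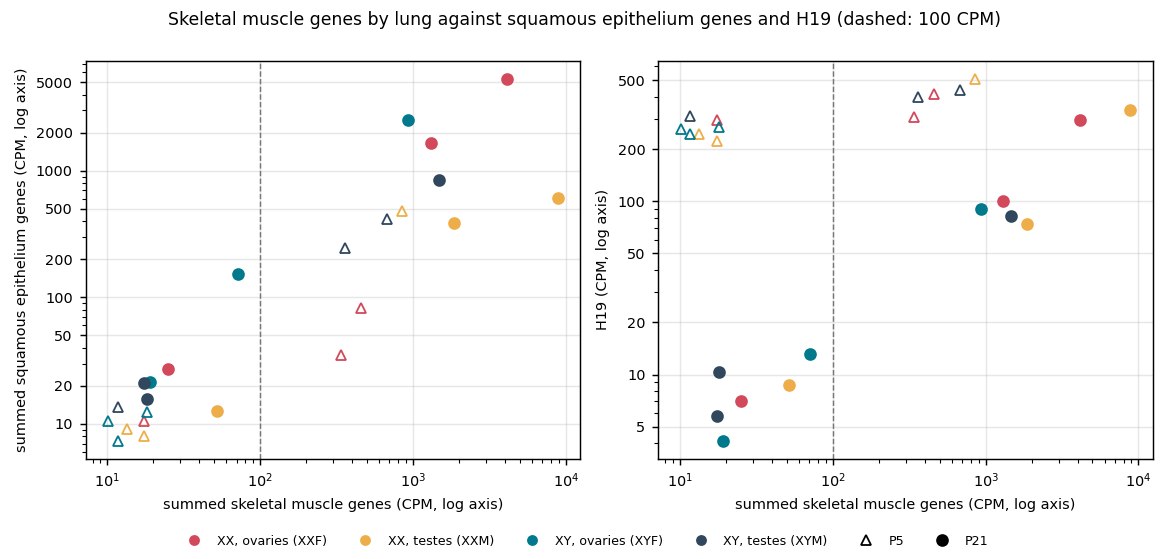
Summed level of 12 skeletal muscle genes (horizontal log axis, CPM) against summed squamous epithelium genes (left) and H19 (right, vertical log axes, CPM) in each room-air lung, with P5 as open triangles and P21 as filled circles. P21 lungs to the right of 100 CPM of muscle held 74.4 to 335 CPM of H19, and those to the left held 4.14 to 13.1 CPM.

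Regulators of fetal growth fell in 8 of 11 tested cases and rose in 0 (median -1.55). Mdk, the growth factor midkine, was 215 to 273 CPM in P5 lungs (median 246) and 13.7 to 27.3 CPM in P21 lungs (median 21.1), a log2 change of -3.56 ± 0.08 (adjusted p = 3.27e-21). Igf2bp3, an RNA-binding protein of fetal tissue, ran from 8.92 to 14 CPM at P5 (median 9.85) and from 1.55 to 2.95 CPM at P21 (median 2.18), a log2 change of -2.22 ± 0.11 (adjusted p = 9.97e-15). Hmga2, a chromatin protein of embryonic mesenchyme, changed by -3.57 ± 0.21, Mycn, a MYC family transcription factor, by -2.03 ± 0.11, and Sox4, a developmental transcription factor, by -1.55 ± 0.09. Lin28b did not pass the filter on low counts and was not tested.

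The extracellular matrix program fell in most of its parts, with a few rises. Of 20 elastic fibre genes 13 fell and 3 rose (median -0.96). Eln, elastin itself, ran from 2039 to 3347 CPM at P5 (median 2919.7) and from 2581 to 3699 CPM at P21 (median 3295) and was not called (log2 change 0.21 ± 0.07, adjusted p = 0.0103). The ages overlapped for Eln, and without the 5 P21 lungs its change was 0.04. Fbn2, the fibrillin of fetal microfibrils, was 77.9 to 96.2 CPM in P5 lungs (median 81.1) and 1.05 to 4.21 CPM in P21 lungs (median 3.33), a log2 change of -4.69 ± 0.12 (adjusted p = 3.48e-20), so that every P21 lung lay far below every P5 lung. Fbn1, the other fibrillin, changed by -0.92 ± 0.06 and Fbln5, a fibulin needed for elastic fibre assembly, by -1.34 ± 0.06. The 3 rises were Lox (0.72 ± 0.13), an enzyme that crosslinks elastin and collagen, its relative Loxl4 (0.72 ± 0.14) and the microfibril protein Mfap5 (1.02 ± 0.07). Lox had a median of 104 CPM at P5 (lowest 87.6, highest 148) and of 170.5 CPM at P21 (lowest 122, highest 282), and the ages overlapped. The call of Lox was lost in XX lungs alone, where its change was 0.49.

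Collagens and their processing enzymes fell in 14 of 23 cases and rose in 2 (median -0.86). Col1a1, the main chain of fibrillar collagen, ran from 1187 to 1469 CPM at P5 (median 1294) and from 537 to 693 CPM at P21 (median 613), a log2 change of -1.09 ± 0.05 (adjusted p = 5.15e-16). Col3a1, the chain of reticular fibers, changed by -0.68 ± 0.04. P4ha3, a subunit of the prolyl hydroxylase that stabilizes collagen helices, was 25.4 to 41.9 CPM in P5 lungs (median 38.8) and 1.37 to 4.52 CPM in P21 lungs (median 3.53), a log2 change of -3.44 ± 0.13 (adjusted p = 5.74e-17). Basement membrane genes had a median nearer 0, with 7 of 21 lower, 1 higher and a median of -0.26. Col4a1 and Col4a2, the chains found in nearly all basement membranes, had changes of -0.46 ± 0.06 and -0.17 ± 0.06 and were not called. The laminin chain Lama1 fell by 2.17 on the log2 scale, and Col4a5 was the member that rose (0.91 ± 0.07).

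Markers of alveolar myofibroblasts, the contractile cells at the tips of septa, fell in 11 of 14 tested cases and rose in 1 (median -1.88). Their summed level was 2525 to 3404 CPM at P5 (median 3186) and 848 to 1082 CPM at P21 (median 920.0), with no overlap. Tgfbi (ENSMUSG00000035493, chr13:56609523-56639562), a matrix protein induced by TGF-β, ran from 819 to 1126 CPM at P5 (median 1059) and from 55.4 to 71.02 CPM at P21 (median 63.3), a log2 change of -3.99 ± 0.06 (adjusted p = 3.79e-23). Acta2, the actin of smooth muscle and myofibroblasts, was 608 to 769 CPM in P5 lungs (median 655) and 88.9 to 170.4 CPM in P21 lungs (median 129), a log2 change of -2.32 ± 0.08 (adjusted p = 1.21e-17). Fgf18, a growth factor made by septal fibroblasts, had a median of 16.99 CPM at P5 (lowest 14.4, highest 20.8) and of 6.59 CPM at P21 (lowest 5.09, highest 7.87), a log2 change of -1.41 ± 0.08 (adjusted p = 5.62e-14). The exception was Pdgfra, the receptor that septal myofibroblast precursors need and that other lung fibroblasts also carry, which ran from 114 to 222 CPM at P5 (median 170.0) and from 257 to 397 CPM at P21 (median 343), a log2 change of 1.03 ± 0.10 (adjusted p = 8.57e-10). Pdgfra rose in every genotype while 11 other markers of the same list fell.

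Signals exchanged between epithelium and mesenchyme fell too. Of 12 genes of the sonic hedgehog pathway 7 fell and 1 rose (median -0.85). The ligand Shh changed by -1.68 ± 0.06, the receptor Ptch1 by -0.80 ± 0.06, the signal transducer Smo by -0.89 ± 0.04, and the transcription factor Gli1, which the pathway also induces, was 32.8 to 53.4 CPM in P5 lungs (median 45.97) and 7.43 to 21.4 CPM in P21 lungs (median 12.5), a log2 change of -1.76 ± 0.12 (adjusted p = 6.39e-12). Hhip, a decoy receptor that binds the ligand, had a median of 186 CPM at P5 (lowest 170.5, highest 217) and of 38.95 CPM at P21 (lowest 27.7, highest 46.1), a log2 change of -2.31 ± 0.07 (adjusted p = 4.77e-19). The rise was in Gas1, a co-receptor (0.78 ± 0.07). Of 29 Wnt pathway genes 15 fell and 4 rose (median -0.63). Rspo2, a secreted amplifier of Wnt signals, ran from 6.95 to 19.7 CPM at P5 (median 15.4) and from 0.677 to 2.03 CPM at P21 (median 1.31), a log2 change of -3.38 ± 0.18 (adjusted p = 2.57e-14). Ctnnb1, the β-catenin of the pathway, and the receptor Fzd4, the members with the most counts, had changes of -0.05 ± 0.04 and 0.13 ± 0.07 and were not called.

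Other fibroblast markers split. Of 18 lipofibroblast and matrix fibroblast genes 5 rose and 8 fell (median 0.18). Inmt (ENSMUSG00000003477, chr6:55170626-55175043), a methyltransferase of small indoles found in adult lung fibroblasts, had the largest rise of any gene named by the rule of fold size. It ran from 11.3 to 33.3 CPM at P5 (median 17.2) and from 1733 to 3112 CPM at P21 (median 2134), a log2 change of 6.96 ± 0.16 (adjusted p = 7.17e-21). Postn, a matricellular protein of growing connective tissue, changed by -0.79 ± 0.04. Pericyte markers were mostly not called, with 3 of 12 lower and 1 higher (median -0.28). Their summed level still fell without overlap, from 2295 to 3042 CPM at P5 (median 2762) to 1738 to 2209 CPM at P21 (median 1962).

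**Figure D4:**
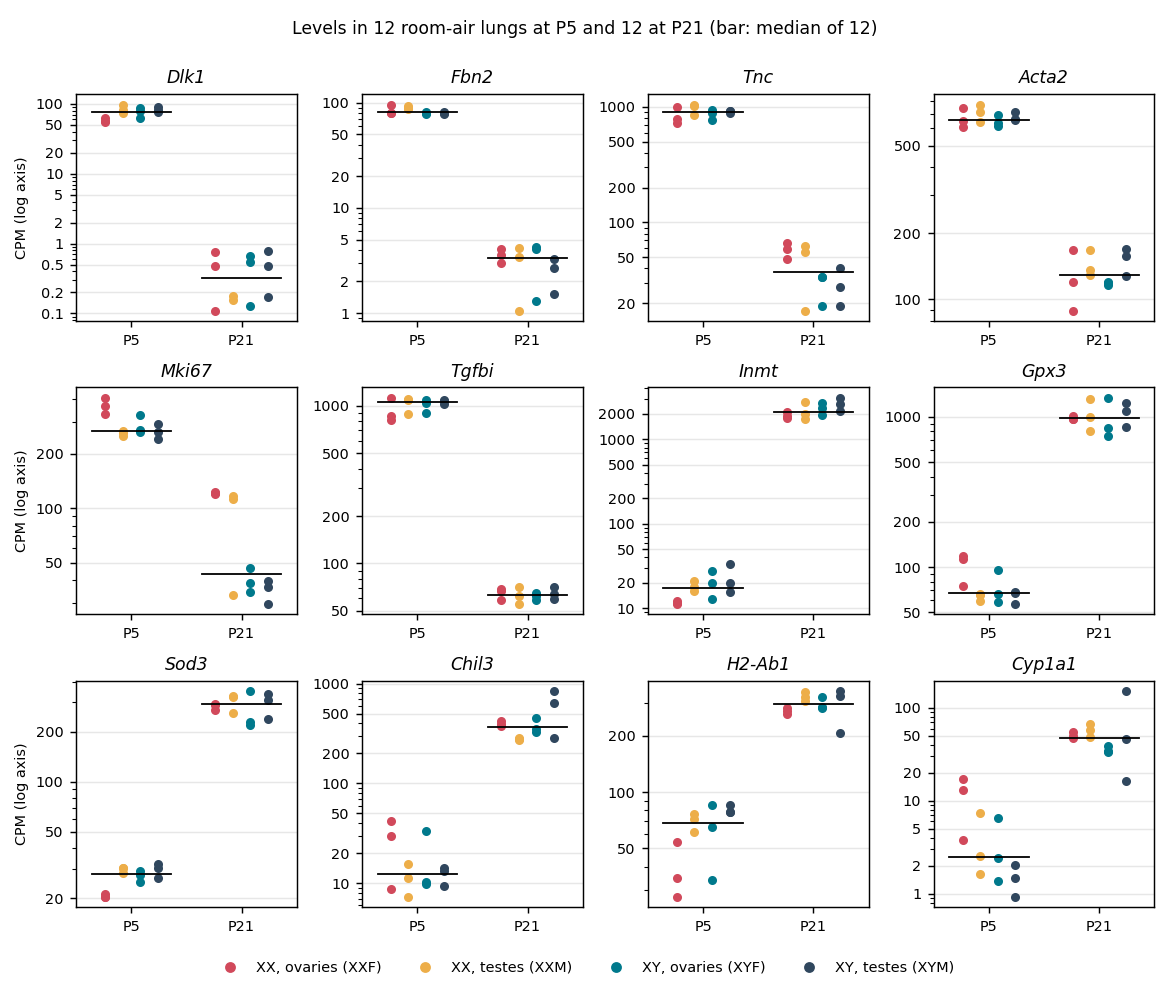
Levels of 12 genes in each room-air lung (CPM, log axes) at P5 and P21, with points colored by genotype and a bar at the median of 12 lungs, where a P21 XXM lung at 0 for Dlk1 is not drawn. Ages do not overlap in 11 of the 12 panels, and Cyp1a1 is the panel in which they do.

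Several of the largest falls were genes outside those lists. Prss35 (ENSMUSG00000033491, chr9:86743649-86758443), a serine protease-like secreted protein, ran from 145 to 242 CPM at P5 (median 201) and from 1.55 to 3.29 CPM at P21 (median 2.67), a log2 change of -6.20 ± 0.11 (adjusted p = 5.96e-23). Lrrc15, a membrane protein of matrix-forming fibroblasts, was 15.6 to 32.97 CPM in P5 lungs (median 23.7) and 0 to 0.526 CPM in P21 lungs (median 0.186), a log2 change of -6.61 ± 0.24 (adjusted p = 2.53e-17). Tnc, tenascin-C, a matrix protein of growing and healing tissue, had a median of 903 CPM at P5 (lowest 724, highest 1048) and of 36.9 CPM at P21 (lowest 17.2, highest 65.9), a log2 change of -4.53 ± 0.19 (adjusted p = 4.98e-16). The fall of Tnc ranged from -3.86 in XXF to -4.96 in XYM mice. Col25a1, a membrane-bound collagen, changed by -5.63 ± 0.14, Pappa2, a protease that frees insulin-like growth factors from their carriers, by -4.97 ± 0.16, Slc27a6, a fatty acid transporter, by -4.40 ± 0.08, Trim67 by -5.12 ± 0.14, and Agt, angiotensinogen, by -4.41 ± 0.18. With Dlk1 and Fbn2 these 8 were the 10 largest falls among genes without overlap and with at least 10 CPM at P5.

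Among the 10 largest rises by the same rule, besides Inmt, were secreted and metabolic genes. Mmp3, the matrix metalloproteinase stromelysin 1, ran from 0 to 0.515 CPM at P5 (median 0.215) and from 18.2 to 31.1 CPM at P21 (median 24.9), a log2 change of 6.70 ± 0.18 (adjusted p = 1.97e-19). Serpina3n, an inhibitor of serine proteases that is induced in inflammation, was 0.681 to 1.90 CPM in P5 lungs (median 0.973) and 60.3 to 185 CPM in P21 lungs (median 97.4), a log2 change of 6.63 ± 0.20 (adjusted p = 8.33e-19). Adra1a, an adrenergic receptor, had a median of 0.451 CPM at P5 (lowest 0.171, highest 0.811) and of 20.3 CPM at P21 (lowest 12.7, highest 25.7), a log2 change of 5.36 ± 0.15 (adjusted p = 5.72e-19). Ms4a4d, a membrane protein, changed by 5.12 ± 0.20 and Cyp2a5, a cytochrome P450, by 5.12 ± 0.37. Bpifa1, Cfd and Sult1d1, also among these rises, are described with their lists.

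In the gas-exchange epithelium all calls were rises. Alveolar type 1 (AT1) markers, from the thin cells that line the alveolus, rose in 8 of 15 cases and fell in 0 (median 0.62). Hopx, a transcriptional cofactor of AT1 cells, ran from 199 to 252 CPM at P5 (median 236) and from 546 to 757 CPM at P21 (median 681), a log2 change of 1.52 ± 0.05 (adjusted p = 3.22e-18). Ager, the membrane receptor RAGE of AT1 cells, was 1403 to 1711 CPM in P5 lungs (median 1499) and 2159 to 3164 CPM in P21 lungs (median 2691), a log2 change of 0.83 ± 0.06 (adjusted p = 2.56e-12). Both rose without overlap. Markers of AT2 cells rose in 10 of 15 cases and fell in 0 (median 0.74). Sftpc changed by 0.73 ± 0.06, Sftpb, the other hydrophobic surfactant protein, by 0.74 ± 0.07, and the lectins Sftpa1 and Sftpd by 1.44 ± 0.07 and 1.15 ± 0.06. In the wider list of surfactant lipid and protein handling 8 of 19 genes rose and 0 fell. Scd1, the desaturase that makes monounsaturated fatty acids, had a median of 373 CPM at P5 (lowest 330.2, highest 647) and of 2097 CPM at P21 (lowest 1349, highest 2895), a log2 change of 2.37 ± 0.13 (adjusted p = 6.91e-14).

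In the conducting airways the list medians were higher. Airway secretory genes rose in 9 of 10 cases and fell in 0 (median 2.22). Bpifa1 (ENSMUSG00000027483, chr2:154142880-154149219), a secreted antimicrobial protein of the upper airways, ran from 0.430 to 9.41 CPM at P5 (median 3.47) and from 101 to 475 CPM at P21 (median 196), a log2 change of 5.97 ± 0.40 (adjusted p = 3.24e-12). Scgb1a1, the main secretoglobin of club cells, was 4392 to 5885 CPM in P5 lungs (median 4753) and 18549 to 34867 CPM in P21 lungs (median 26897), a log2 change of 2.39 ± 0.07 (adjusted p = 1.70e-18). Scgb3a1, a secretoglobin of the larger airways, had a median of 33.1 CPM at P5 (lowest 3.06, highest 209.8) and of 524 CPM at P21 (lowest 245, highest 956), a log2 change of 3.36 ± 0.47 (adjusted p = 8.37e-07). Within P5 alone the highest and lowest lungs for Bpifa1 and Scgb3a1 lay far apart, and even so no P5 lung reached a P21 lung. Ciliated cell genes rose in 11 of 12 cases and fell in 0 (median 1.05), among them Foxj1, the master regulator of motile cilia (1.09 ± 0.07), and Dnah5, a dynein heavy chain (1.53 ± 0.14).

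Ion and water channels rose in 9 of 18 cases and fell in 2 (median 0.77). Scnn1a, a subunit of the epithelial sodium channel that clears lung liquid, changed by 1.47 ± 0.11, the sodium pump subunit Atp1b1 by 1.35 ± 0.07, and the water channel Aqp5 by 0.83 ± 0.06. The 2 falls were in Kcnma1, a calcium-activated potassium channel of contractile cells (-3.00 ± 0.22), and Kcnk3, a background potassium channel (-0.59 ± 0.05).

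Vascular genes were read as a list of growth signals and by cell type. Of 24 genes of VEGF and angiopoietin signaling 6 rose and 2 fell, shares near those over all genes (median 0.05). Their summed level was 4073 to 4915 CPM at P5 (median 4421) and 5378 to 7061 CPM at P21 (median 6095), without overlap. With library totals alone the counts were 3 and 4. Vegfa, the main angiogenic growth factor, and its receptor Kdr had changes of 0.38 ± 0.04 and -0.04 ± 0.06 and were not called. Every P21 lung was above every P5 lung for Vegfa, with a change below the 1.5-fold minimum. Epas1, a hypoxia-inducible factor of endothelium, ran from 1055 to 1219.6 CPM at P5 (median 1102) and from 1967 to 3051 CPM at P21 (median 2259), a log2 change of 1.09 ± 0.06 (adjusted p = 1.50e-13). Angpt2, a ligand of the Tie2 receptor, changed by 0.59 ± 0.16 (adjusted p = 0.00158), the ages overlapped, and without the 5 P21 lungs or without the 4 P5 lungs it was not called (0.40 and 0.26), nor was it without any 1 of 9 lungs.

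By cell type, general capillary genes rose in 5 of 10 cases and fell in 1 (median 0.75). Their summed level was 1908 to 2448 CPM at P5 (median 2201) and 3117 to 4103 CPM at P21 (median 3571), without overlap. Gpihbp1, which anchors lipoprotein lipase to capillaries, changed by 1.05 ± 0.08 and Ptprb, an endothelial phosphatase, by 1.09 ± 0.07. Of 11 genes of aerocytes, the capillary cells that span the gas-exchange surface, 2 rose and 1 fell (median -0.04). Car4, a carbonic anhydrase on their surface, rose by 1.16 ± 0.07, and the endothelin receptor Ednrb was not called (-0.15 ± 0.07). Lymphatic genes rose in 2 of 8 cases and fell in 1.

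Defense against oxidants and foreign chemicals rose. Of 20 antioxidant genes 10 rose and 0 fell (median 0.60). Gpx3, the secreted glutathione peroxidase, ran from 56.9 to 119 CPM at P5 (median 66.9) and from 751 to 1341 CPM at P21 (median 977), a log2 change of 3.77 ± 0.14 (adjusted p = 2.89e-17). Sod3, the superoxide dismutase of the extracellular space, was 20.3 to 32.2 CPM in P5 lungs (median 27.97) and 218 to 352 CPM in P21 lungs (median 291), a log2 change of 3.43 ± 0.09 (adjusted p = 5.15e-20). Cat, the intracellular catalase, changed by 0.68 ± 0.03, and Prdx6, a peroxiredoxin that also acts on surfactant lipids, by 1.89 ± 0.09. All 20 of 20 tested genes of xenobiotic metabolism rose (median 1.83). Sult1d1, a sulfotransferase, changed by 5.01 ± 0.28. Cyp2f2, the cytochrome P450 of club cells, ran from 402 to 592 CPM at P5 (median 471) and from 1528 to 2519.8 CPM at P21 (median 2082), a log2 change of 2.06 ± 0.07 (adjusted p = 8.00e-18). Cyp1a1, the cytochrome P450 induced through the aryl hydrocarbon receptor, was 0.922 to 16.99 CPM in P5 lungs (median 2.48) and 16.5 to 153 CPM in P21 lungs (median 47.6), a log2 change of 3.69 ± 0.41 (adjusted p = 2.28e-08), and the highest P5 lung passed the lowest P21 lung.

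Retinoid handling shifted between its parts. Of 15 genes tested 8 rose and 3 fell (median 0.63). Lrat, which stores retinol as esters, ran from 1.62 to 2.97 CPM at P5 (median 2.41) and from 18.2 to 155 CPM at P21 (median 42.2), a log2 change of 4.38 ± 0.24 (adjusted p = 8.38e-14). Aldh1a1, an enzyme that makes retinoic acid, was 179.8 to 291 CPM in P5 lungs (median 189.5) and 858 to 1481 CPM in P21 lungs (median 1071), a log2 change of 2.39 ± 0.11 (adjusted p = 3.49e-15). The falls included the retinol uptake receptor Stra6 (-0.78 ± 0.28) and the enzyme Aldh1a3 (-0.98 ± 0.16). None of the 3 nuclear receptors Rara, Rarb and Rarg was called.

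Genes induced by glucocorticoids rose in 10 of 16 cases and fell in 1 (median 0.85). Tsc22d3, the leucine zipper protein GILZ, ran from 102 to 124 CPM at P5 (median 110.5) and from 343 to 763 CPM at P21 (median 419.8), a log2 change of 2.03 ± 0.10 (adjusted p = 4.96e-15). Klf9, a transcription factor of the same response, was 19.4 to 26.5 CPM in P5 lungs (median 21.5) and 98.01 to 164 CPM in P21 lungs (median 123), a log2 change of 2.48 ± 0.08 (adjusted p = 8.00e-18). Zbtb16, a zinc finger repressor, had a median of 2.96 CPM at P5 (lowest 1.89, highest 4.98) and of 41.4 CPM at P21 (lowest 6.12, highest 136), a log2 change of 3.91 ± 0.50 (adjusted p = 1.92e-07), and its P21 range was that of the lungs that stood apart, given above. Fkbp5, the chaperone that limits receptor activity, ran from 19.7 to 41.4 CPM at P5 (median 24.5) and from 17.8 to 114 CPM at P21 (median 30.7), a log2 change of 0.76 ± 0.31 (adjusted p = 0.0302). The ages overlapped for Fkbp5, which was not called in XX lungs alone (0.02), without the 11 lungs high in muscle genes (0.50) or with library totals, and changed by 1.52 without the 5 P21 lungs. Nor was it called without any 1 of 6 lungs, XXM animal 39, XYF animals 13, 14 and 48 and XYM animals 11 and 42.

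Clock genes spread widely at P21. Of 18 tested 6 rose and 2 fell (median 0.34). Nr1d1, the repressor REV-ERBα, ran from 5.81 to 15.3 CPM at P5 (median 11.7) and from 27.3 to 226 CPM at P21 (median 78.7), a log2 change of 3.02 ± 0.29 (adjusted p = 2.24e-09). Per1, a repressor of the clock that glucocorticoids also induce, was 34.8 to 84.5 CPM in P5 lungs (median 43.1) and 75.9 to 181 CPM in P21 lungs (median 139.8), a log2 change of 1.47 ± 0.16 (adjusted p = 8.39e-09). Arntl, the activator BMAL1, had a median of 21.2 CPM at P5 (lowest 17.1, highest 23.6) and of 25.01 CPM at P21 (lowest 6.84, highest 45.6) and was not called (log2 change 0.24 ± 0.20, adjusted p = 0.285). The 12 P5 lungs lay close together for Arntl, and the P21 lungs lay on both sides of them. The 5 P21 lungs held 32.5 to 45.6 CPM of Arntl and 27.3 to 43.4 CPM of Nr1d1, against 6.84 to 29.7 and 57.5 to 226 CPM in the other 7. Activator high and repressors low thus went with high G2 and M phase genes by lung, and no hour of collection is labelled.

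Immune genes rose broadly. MHC class II and antigen processing genes, with which cells show peptides to helper T cells, rose in 11 of 12 cases and fell in 0 (median 1.77). H2-Ab1, a class II β chain, ran from 27.5 to 85.5 CPM at P5 (median 68.6) and from 208 to 349 CPM at P21 (median 296), a log2 change of 2.29 ± 0.14 (adjusted p = 4.59e-13). Cd74, the invariant chain that fills the class II groove during transport, was 194 to 421 CPM in P5 lungs (median 333) and 743 to 1251 CPM in P21 lungs (median 949.9), a log2 change of 1.67 ± 0.11 (adjusted p = 1.38e-12). Dendritic cell genes rose in 10 of 12 cases and fell in 1 (median 1.88). Their summed level did not rise, with 199 to 232 CPM at P5 (median 222) and 201 to 245 CPM at P21 (median 219). Cd209a, a lectin of monocyte-derived dendritic cells, had a median of 0.528 CPM at P5 (lowest 0.285, highest 1.34) and of 12.1 CPM at P21 (lowest 9.05, highest 15.6), a log2 change of 4.24 ± 0.18 (adjusted p = 7.80e-16). Xcr1, a receptor of cross-presenting dendritic cells, changed by 2.61 ± 0.16. The member that fell, Fscn1 (-2.07 ± 0.07), bundles actin and is not made by dendritic cells alone.

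Alveolar macrophage genes rose in 11 of 16 cases and fell in 0 (median 0.66), and with library totals 6 rose. Chil3, a chitinase-like protein secreted by alveolar macrophages, ran from 7.28 to 42.3 CPM at P5 (median 12.2) and from 274 to 849 CPM at P21 (median 365), a log2 change of 4.62 ± 0.28 (adjusted p = 5.42e-13). Marco, a scavenger receptor of the same cells, was 5.36 to 14.9 CPM in P5 lungs (median 8.06) and 8.80 to 19.2 CPM in P21 lungs (median 14.4), a log2 change of 0.67 ± 0.14 (adjusted p = 1.77e-04), and the ages overlapped. Interstitial macrophage and monocyte genes rose in 7 of 15 cases and fell in 0, with a change of 1.05 ± 0.08 for Ccr2, the receptor that brings monocytes into tissue. Complement and innate defense genes rose in 16 of 22 cases and fell in 0 (median 1.37). C4b, a complement component, had a median of 17.9 CPM at P5 (lowest 11.4, highest 22.3) and of 150.0 CPM at P21 (lowest 102, highest 352), a log2 change of 3.22 ± 0.15 (adjusted p = 5.56e-15). Lyz2, the lysozyme of myeloid and AT2 cells, ran from 1443 to 2073 CPM at P5 (median 1773) and from 5814 to 8835 CPM at P21 (median 6264), a log2 change of 1.89 ± 0.07 (adjusted p = 9.36e-17).

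Lymphocyte genes rose with few exceptions. B cell genes rose in 14 of 14 cases (median 2.09), NK cell genes in 12 of 12 (median 2.28), and T cell genes in 17 of 18, with 1 lower (median 1.35). Cd79a, a signaling chain of the B cell receptor, ran from 7.70 to 14.8 CPM at P5 (median 10.9) and from 30.7 to 95.3 CPM at P21 (median 44.1), a log2 change of 2.17 ± 0.13 (adjusted p = 5.78e-13). Klrd1, a receptor chain of NK cells, changed by 2.76 ± 0.18. Cd3e, a chain of the T cell receptor complex, was 0.343 to 1.94 CPM in P5 lungs (median 0.747) and 0.909 to 6.10 CPM in P21 lungs (median 2.93), a log2 change of 1.51 ± 0.25 (adjusted p = 9.71e-06), with overlap between the ages. The T cell gene that fell was Tcf7, a transcription factor of young T cells that other tissues also use (-0.94 ± 0.08). Without the 4 P5 lungs 14 T cell genes rose. The summed T cell genes were 93.2 to 150.3 CPM at P5. At P21 the sum was 163 to 302 CPM in mice with ovaries and 80.4 to 123 CPM in mice with testes. Thymocyte genes, which would mark thymus taken along, rose in 3 of 6 tested cases and fell in 1, and without the 4 P5 lungs in 0 and 2. The summed level of the list was lower at P21, at 105 to 175 CPM (median 136) against 182 to 217 CPM at P5 (median 194), without overlap. Immunoglobulin constant regions rose in all 8 tested cases (median 2.55). Igha, the heavy chain of mucosal IgA, had a median of 0.0575 CPM at P5 (lowest 0, highest 0.168) and of 1.99 CPM at P21 (lowest 0.526, highest 3.49), a log2 change of 4.83 ± 0.35 (adjusted p = 1.04e-11), and Ighm, the heavy chain of IgM, changed by 1.78 ± 0.13.

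Granulocyte lists were mixed. Of 12 neutrophil genes 5 rose and 2 fell (median 0.49). S100a8, a calcium-binding protein of neutrophils, ran from 30.8 to 73.3 CPM at P5 (median 41.3) and from 15.3 to 294 CPM at P21 (median 42.01) and was not called (log2 change 0.29 ± 0.34, adjusted p = 0.451), while the granule gene Ngp (-1.13 ± 0.49) and Stfa2l1 (-1.78 ± 0.29) fell. In XX lungs alone 0 neutrophil genes rose and 5 fell. Of 7 mast cell and basophil genes 4 fell and 1, Gata2, rose (0.97). Their summed level went the other way from these counts. It was 94.1 to 134 CPM at P5 (median 110) and 140 to 196 CPM at P21 (median 160), without overlap. Mcpt4, a protease of connective tissue mast cells, was 5.19 to 8.43 CPM in P5 lungs (median 6.80) and 0 to 0.667 CPM in P21 lungs (median 0.172), a log2 change of -4.61 ± 0.26 (adjusted p = 9.59e-14).

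Interferon response genes rose in 18 of 20 cases and fell in 0 (median 1.97). Ifit3, an antiviral protein, ran from 6.04 to 8.52 CPM at P5 (median 7.07) and from 35 to 98.7 CPM at P21 (median 48.8), a log2 change of 2.89 ± 0.13 (adjusted p = 2.17e-15). Ifi27l2a, an interferon-induced membrane protein, was 4.01 to 10.6 CPM in P5 lungs (median 5.72) and 28.8 to 95.7 CPM in P21 lungs (median 62.2), a log2 change of 3.22 ± 0.19 (adjusted p = 2.25e-13). Irf7, the transcription factor that amplifies the response, changed by 2.02 ± 0.09. The summed level was 257 to 332 CPM at P5 (median 281) and 543 to 946 CPM at P21 (median 755), without overlap. Promoters were found for 12 of the 20 genes and searched on both strands for a form of the interferon-stimulated response element, a GAAA followed after any 2 bases by another GAAA, a search added after the changes were seen. It stood in 7 of 13 promoters (53.8%), against 3.44% of all 32851. The promoters of Gbp2 (chr3:142620413-142620712, plus strand), a GTPase that changed by 1.71 ± 0.09, and Rsad2 (chr12:26456403-26456702, minus strand), the antiviral enzyme viperin, which changed by 1.47 ± 0.26, follow with the match on either strand in capitals. Both genes were chosen after their values were seen. Here too the share describes a list chosen with earlier results of these data known, and a match is not shown to be a site.
Gbp2: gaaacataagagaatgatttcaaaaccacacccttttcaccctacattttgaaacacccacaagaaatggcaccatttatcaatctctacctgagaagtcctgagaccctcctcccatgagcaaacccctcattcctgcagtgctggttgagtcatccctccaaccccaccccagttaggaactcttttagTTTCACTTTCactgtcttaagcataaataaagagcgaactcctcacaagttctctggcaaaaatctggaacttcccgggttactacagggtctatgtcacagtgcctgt
Rsad2: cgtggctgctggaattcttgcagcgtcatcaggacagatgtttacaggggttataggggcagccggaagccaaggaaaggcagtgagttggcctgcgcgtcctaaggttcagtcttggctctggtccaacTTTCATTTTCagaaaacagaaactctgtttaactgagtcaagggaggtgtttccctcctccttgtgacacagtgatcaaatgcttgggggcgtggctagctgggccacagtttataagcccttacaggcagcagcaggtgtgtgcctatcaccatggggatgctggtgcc

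Red cell genes rose in 6 of 13 tested cases and fell in 0 (median 0.54). Hbb-bt, an adult β-globin, ran from 557 to 939 CPM at P5 (median 723) and from 1339 to 6218 CPM at P21 (median 2013), a log2 change of 1.70 ± 0.18 (adjusted p = 8.59e-09), and its reads may be shared with the near-identical Hbb-bs. The rises included the 4 globin genes and Alas2, an enzyme of heme synthesis, and the erythroid regulators Gata1 (0.06 ± 0.33) and Klf1 (-0.25 ± 0.47) were not called. Without the 5 P21 lungs 10 members rose, and without the 4 P5 lungs 12 did. In XX lungs alone 5 rose and 3 fell. Perfusion of the vessels is not stated in the sources used here, and the part of blood left in the lung was not tested. Platelet genes gave 1 rise and 1 fall among 8.

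Lists of fat, muscle and squamous epithelium, tissues other than lung parenchyma, also changed, and the source of these transcripts was not tested. Fat genes rose in 9 of 11 tested cases (median 1.97) and in 4 in XY lungs alone. Cfd, the adipocyte protease adipsin, ran from 0 to 3.60 CPM at P5 (median 0.0908) and from 6.23 to 38.8 CPM at P21 (median 15.2), a log2 change of 5.12 ± 0.59 (adjusted p = 3.89e-08). Without 1 P5 lung, XYM animal 11, the change of Cfd was 6.67. Skeletal muscle genes rose in 10 of 12 cases and fell in 1, with no gene free of overlap. With limma voom and sample weights 4 rose. The fall was in Myh3, the embryonic myosin (-5.08 ± 1.09), and the rises included the adult fast myosins Myh1 (5.58 ± 1.10) and Myh4 (5.12 ± 1.22). Pvalb, a calcium buffer of fast muscle, reached 529 CPM in 1 lung, XXM animal 37, and its change of 9.50 ± 1.43 became 5.90 without it and 4.61 without the 11 lungs high in muscle genes. Genes of squamous epithelium, as in the esophagus, rose in 7 of 10 cases, with Krt13 at 175 to 2328 CPM in P21 lungs high in muscle genes and 0.258 to 60.3 CPM in the others. Krt13 (log2 change 3.81 ± 1.69, adjusted p = 0.0466) and Acta1, the actin of skeletal muscle (log2 change 3.16 ± 1.26, adjusted p = 0.0281), overlapped between the ages. Acta1 was not called without XXF animal 35, XXM animal 37, XYM animal 42 or XYF animal 46, and Krt13 was not called without any 1 of 15 lungs, those 4 included. Without XXM animal 5, a P5 lung, their changes were 4.01 for Acta1 and 6.09 for Krt13. Cardiac muscle genes, which the muscle around pulmonary veins also expresses, rose in 7 of 12 cases and fell in 1 (median 0.73). Mesothelial genes rose in 5 of 8 cases, nerve genes in 2 of 9 with 1 lower, and liver genes in 2 of 7. No lung exceeded 10 times the median of its age for the fat, liver or thymocyte list.

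The course from P5 to P21 was then compared between genotypes. In a fit of the 8 groups, each genotype, with 3 lungs against 3, had 2819 (16.1%) to 3042 (17.4%) genes higher and 2131 (12.2%) to 2242 (12.8%) lower. In all 4 genotypes 1726 genes were higher and 1418 were lower, and 19 genes were called in opposite directions in a pair of genotypes. In mice with ovaries Inmt changed by 7.36 (XXF) and 6.85 (XYF), and in mice with testes by 6.86 (XXM) and 6.82 (XYM). Tgfbi changed by -3.85 and -4.03, and by -4.04 and -4.03, in the same order. A joint test of the 3 genotype terms called 114 genes (0.65%), and leaving out a single lung moved this count by more than 1.5 times for 21 of the 24 lungs, over a range of 0 to 422. It was 0 without animals 1, 2, 6, 7, 10, 11 or 34 and 422 without XXM animal 39.

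Among these were Lama3, a laminin chain of epithelial basement membranes, and Hdhd5, a hydrolase-like protein. In XXF mice Lama3 changed by 0.74, and in the other genotypes by -0.20 to -0.13 (adjusted p = 0.0233). Hdhd5 changed by 0.87 in XXF and by 0.05 to 0.10 elsewhere (adjusted p = 0.0233).

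Between XY and XX mice the age change differed in 149 genes (0.85%), with 109 (0.622%) lower and 40 (0.228%) higher in XY. The G2 and M phase list held 22 of its 24 genes among the negative differences (median -1.50), and the S phase list held 0 (median -0.36). In XY mice the fall was larger. For Cenpf, a kinetochore protein, it was -3.26 in XYF and -3.36 in XYM, against -1.15 in XXF and -1.07 in XXM, a difference of -2.20 ± 0.30 (adjusted p = 0.00258). Pimreg, a mitotic regulator, and Ccna2, cyclin A2, differed by -2.89 ± 0.41 and -1.71 ± 0.24. Neutrophil genes gave 7 positive differences of 12 (median 1.88) and red cell genes 3 of 13 (median 1.65). At P21 the neutrophil sum was 85.3 to 194 CPM in XX lungs. In XY lungs it spread from 191 CPM in XYM animal 42 to 1144 CPM in XYM animal 43. The red cell sums overlapped, at 12541 to 28977 CPM in XX and 15448 to 41875 CPM in XY lungs. S100a8 differed by 2.23 ± 0.45 (adjusted p = 0.0135). All 5 P21 lungs with high G2 and M phase genes were XX, and the sixth XX lung, XXM animal 39, lay with the XY lungs within 29.6 to 46.9 CPM of Mki67. Without the 5 only 1 XX lung would remain at P21, so sex chromosomes and whatever else set these lungs apart cannot be told apart here. The count was 363 without XXM animal 39 and 94 without XXM animal 40.

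Between mice with testes and mice with ovaries edgeR called 0 genes (0%) for a difference in the age change. At an unadjusted p under 0.05 there were 1263 (7.2%), and DESeq2 called 9. Each arm held 6 lungs at each age. Some list medians (testes minus ovaries) still lay away from the -0.0009 of all genes. The furthest was -5.66 for 10 squamous epithelium genes, a list in which lungs of the same age differed widely. Others were -1.56 for 6 thymocyte genes, -1.40 for 12 skeletal muscle genes and -0.95 for 18 T cell genes. On the positive side were 0.67 for 8 platelet genes and 0.58 for 12 cardiac muscle genes.

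Room-air maturation was last set against the course in exposed mice, in a fit of all 48 lungs. For exposed mice that course ran from the end of exposure at P5 to P21, after recovery in room air. The change from P5 to P21 differed between exposed and room-air mice in 2125 of 18732 genes (11.3%), with 1099 (5.87%) higher and 1026 (5.48%) lower in exposed mice. The room-air values enter this difference, so it is a comparison of the same lungs with a further group. G2 and M phase genes gave 14 lower and 0 higher differences of 24 (median -0.70, against 0.04 for all genes). In XX lungs alone 20 were lower and 0 higher (median -1.44), and in XY lungs alone, which hold none of the 5 P21 lungs that stood apart, 0 were lower and 2 higher (median 0.13). In room air their sum was 1342 to 2289.7 CPM (median 1517) at P5 and 177 to 775 CPM (median 266) at P21. After exposure it was 559 to 1434 CPM (median 1074) at P5 and 126 to 192 CPM (median 156) at P21. By medians this G2 and M phase sum was lower in exposed lungs at both ages. S phase genes gave 10 lower and 0 higher differences of 24 (median -0.50). Their sum was higher in exposed lungs at P5 by medians, at 1373 CPM against 1154 CPM in room air, and lower at P21, at 346 CPM against 403 CPM. Ranges overlapped at both ages.

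Alveolar myofibroblast genes gave 10 higher and 0 lower differences of 15 (median 0.73). Their room-air sums were 2537 to 3413 CPM (median 3196) at P5 and 849.7 to 1086 CPM (median 920.2) at P21. Exposed lungs had 1807 to 2196 CPM (median 2036) at P5, below every room-air lung of that age, and 828 to 1688 CPM (median 1104) at P21. Imprinted genes gave 8 higher of 18, elastic fibre genes 7 of 20 and Wnt genes 8 of 29 with 1 lower. Mfap2, a microfibril protein, changed by -1.005 in room air and 0.27 after exposure (difference 1.28 ± 0.10, adjusted p = 7.19e-12). Dlk1 changed by -7.73 and -5.02 (adjusted p = 1.20e-04). Room-air P21 lungs held 0 to 0.796 CPM of Dlk1, near the floor, so the size of this difference is uncertain. In the fit of room-air lungs alone its change was -7.30. Rhou, a small GTPase, changed by -1.10 and 0.04, and Clip4, a linker protein of microtubules, by 0.92 and -0.44.

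Interferon genes gave 11 lower and 0 higher differences of 20 (median -0.65). Their sum was 545 to 954 CPM (median 755) in room-air and 353 to 742 CPM (median 529) in exposed lungs at P21, and 258 to 333 CPM (median 282) and 243 to 372 CPM (median 284) at P5. Complement and innate defense genes gave 9 lower of 22 and xenobiotic genes 7 lower of 20 with 1 higher, and 5 of 20 antioxidant genes were lower. Cardiac muscle genes gave 7 lower of 12, with a P21 sum of 445 to 1056 CPM (median 598) in room air and 71.3 to 1049.9 CPM (median 164) after exposure, and how much heart or pulmonary vein muscle each lung held was not tested. In XY lungs alone, where the 5 P21 lungs play no part, 1936 genes were called, with 10 of 14 myofibroblast genes higher and 11 of 20 interferon and 8 of 12 cardiac genes lower. In XX lungs alone 1027 were called, with 8 of 14 higher, and 3 of 20 and 0 of 12 lower. The XX fit called fewer genes in all, so the list counts of the XX and XY fits stand against different backgrounds. Whether these list counts differ between XX and XY lungs was not tested.

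**Figure D5:**
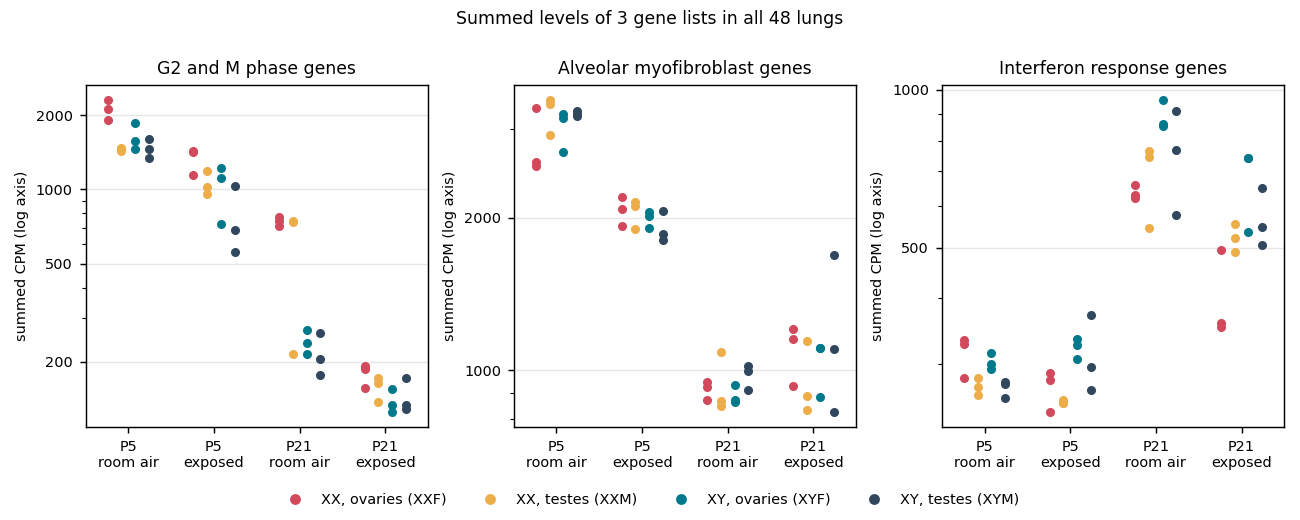
Summed levels (CPM, log axes) of G2 and M phase, alveolar myofibroblast and interferon response genes in all 48 lungs, by age and treatment and colored by genotype. Room-air lungs fall in the first and second panels and rise in the third from P5 to P21, and exposed P5 lungs lie below room-air P5 lungs in the second.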

How the data were processed

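Whole-lung poly(A) RNA of 48 mice was sequenced, and 24 room-air lungs were used, with all 48 in the comparison with hyperoxia. Values are raw read counts per gene, whole numbers as deposited by the authors. The submitters' processing notes name HISAT2, featureCounts and mm10, with no versions, and do not give the strand setting. Gene identifiers were looked up in GENCODE on GRCm38 for symbols and positions. Of 52550 genes 147 were not found there, with 0.0082% of counts. Of 48 columns of counts, 1, for animal 34, gives another age than any sample has and was matched by genotype, treatment and animal number, the others were matched by title, and 0 columns were left over. All 24 pairs of replicates differed by more than sampling noise (chi-square per degree of freedom 3.40 to 19.1).

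Counts were filtered (filterByExpr over the groups), scaled by TMM and tested with the quasi-likelihood F test of edgeR 4.0.16 in R 4.3.3, two-sided, with genotype as a block (19 residual degrees of freedom). P-values were adjusted by the Benjamini-Hochberg method over all tested genes, and calls needed an adjusted p under 0.05 and a 1.5-fold change. Differences between genotypes, chromosomes and gonads came from a fit of 8 group means, and those with hyperoxia from 16 group means. The joint genotype test carried no fold minimum. Totals per library were 6042939 to 56798952 counts, and genes with few counts have wider errors. The steps were tested on simulated counts. Alternatives were DESeq2 1.42.0, limma 3.58.1 (voom with sample weights), other scalings, filters and fold minimums, thinned counts, XX or XY lungs alone, and each lung left out. Figures were drawn with matplotlib 3.10.9.

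The members and gene lists were chosen with earlier results of these data known. Genes were named by a rule: the 10 largest rises and falls without overlap and with at least 10 CPM at the higher age, the 2 most abundant members of each list and its largest called change of at least 5 CPM, the 3 smallest adjusted p of each interaction, and a set of textbook genes of lung growth. Other members of the lists (such as Mest, Hmga2, Klf9, C4b, Ifit3, Xcr1, Scnn1a, Gas1, Myh3 and Dbp) were named after their values were seen. Some genes that the rule names are not reported here.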

Additional observations from a re-analysis of the deposited data

Results flagged for a closer look

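The change from P5 to P21 differed between groups in several results. The joint test over the 4 genotypes called 114 genes, the contrast of XY and XX mice called 149, and the contrast of exposed and room-air mice called 2125. Each difference was tested as an interaction term in edgeR.

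By sex chromosomes, the genes with the smallest adjusted p were Pimreg, with a log2 difference (XY change minus XX change) of -2.89, Cenpf with -2.20 and Ccna2 with -1.71, all of them genes of mitosis. The 5 P21 lungs with high mitotic genes were all XX, and they also had 32.5 to 45.6 CPM of Arntl against 6.84 to 29.7 CPM in the other 7. The part of sampling hour, litter or handling was not tested.

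By genotype, Lama3, Cenpf and Hdhd5 each had an adjusted p of 0.0233 in the joint test. For Lama3 the 3 XXF lungs at P21 lay above the other 9, and for Hdhd5 as well.

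Between exposed and room-air mice, the log2 difference of the age change (exposed minus room air) was -1.35 for Clip4, 1.14 for Rhou and 1.28 for Mfap2. In each of these 3 genes the change in room air was not matched in exposed mice, whose changes were -0.44, 0.04 and 0.27.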

How the results depend on the processing

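The counts of genes changed between P5 and P21 stayed within 1.5 times under DESeq2, RLE factors, library totals, no count filter, thinned counts, 8 group means, no genotype block, voom, XX or XY lungs alone, the fit of 48 lungs and each lung left out (3451 to 3633 higher, 2410 to 2495 lower). The fold minimum moved them, to 6637 higher and 6183 lower without one and to 1904 and 1265 at 2-fold. Library totals turned the split to 2881 higher and 2963 lower.

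Counts of differences between genotypes depended on the tool and on single lungs. The joint genotype test called 456 genes in DESeq2, 408 without the count filter, 53 without the 11 lungs high in muscle genes and 0 to 422 when a lung was left out. For sex chromosomes the counts were 246 in DESeq2, 251 without the filter and 94 to 363 when a lung was left out, and 18 to 24 of the 24 G2 and M phase genes were called. For gonads they were 9 in DESeq2, 7 without the filter and 0 to 0. For hyperoxia they were 1974 to 3001 when a lung was left out and 1027 in XX lungs alone, and the 14 G2 and M phase genes became 2, both higher, in XY lungs alone. The cause of these shifts was not tested.

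Of 182 named genes tested, 147 were called, and 16 of these lost the call under at least 1 alternative. In XX lungs alone S100a8 turned to -0.88 and S100a9 to -0.70. No paired analysis was possible because animal numbers were not shared between the groups. Leaving out lungs with over 10 times the median of fat, liver or thymocyte genes was not run, as no lung met it. Depth limited genes of low count, and the smallest library held 6042939 counts.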

Other observations

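The 4 P5 lungs with the highest G2 and M phase sums, XXF animals 1, 2 and 3 and XYF animal 15, differed from the other 8 in further genes. They held 27.5 to 53.8 CPM of H2-Ab1, a class II gene, against 61.5 to 85.5 CPM, and 20.3 to 24.9 CPM of Sod3 against 26.6 to 32.2 CPM. Gpx3 was 74.3 to 119 CPM against 56.9 to 68.2 CPM, and Fkbp5 was 33.4 to 41.4 CPM against 19.7 to 26.7 CPM. Class II and Sod3 levels were thus low in the lungs where mitotic genes were high, while Gpx3 and Fkbp5 were high. These lungs were picked out by their levels, and no test was made.

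The biological coefficient of variation in edgeR was 0.107 among P5 lungs and 0.175 among P21 lungs, each fitted alone. Mitochondrial genes held 1.45% to 1.73% of counts at P5 and 1.66% to 2.86% at P21. With libraries thinned to the smallest total, 21450 to 22145 genes had a count at P5 and 21194 to 22057 at P21.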
